A study of Mus musculus with 6 samples.

Results

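The death receptor and caspase genes of the mouse were followed in sorted double positive (DP) thymocytes lacking NSrp70. They were taken by gene symbol, and all 8 genes sought were found among the 23183 symbols listed for each library: the ligand *Fasl*, the receptor *Fas*, the adaptor *Fadd*, the initiator caspase *Casp8* and its inhibitor *Cflar*, the scaffold *Apaf1* and the initiator caspase *Casp9* of the mitochondrial route, and the executioner caspase *Casp6*. DP thymocytes are immature T cells that display CD4 together with CD8. The libraries came from C57BL/6 mice of 6 weeks, 3 from *Nsrp1* f/f mice (WT) and 3 from *Nsrp1* f/f mice that also carried CD4Cre (NSrp70-cKO), so that both groups shared the floxed allele and only the cKO mice carried the Cre, which is driven by *Cd4* regulatory sequences. No source used here says how many mice gave each library, so p-values measure the spread between these libraries, which may be technical.

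Apoptosis is run by caspases, proteases that are made as inactive precursors. In the extrinsic route, Fas ligand binds Fas on the cell surface, Fas recruits the adaptor FADD, and FADD brings caspase-8 molecules together so that they activate each other, a step that c-FLIP, the product of *Cflar*, holds back. In the intrinsic route, cytochrome c leaves the mitochondria and joins APAF1, which activates caspase-9, and both routes converge on executioner caspases. In the thymus, DP cells that fail selection die mainly by the intrinsic route, and DP thymocytes are known for high surface Fas. The study asked whether loss of NSrp70, a splicing regulator, alters growth and survival of DP thymocytes, and the mRNA level of this machinery was compared between the genotypes for that reason.

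*Casp8* and *Cflar*, whose values moved in opposite directions, lie side by side on chromosome 1 of GRCm38 (mm10), *Cflar* from 58711508 to 58758884 and *Casp8* from 58795374 to 58847503, 36.5 kb apart and on the same strand. *Casp6*, the other member that passed the test, lies on chromosome 3 from 129901425 to 129914103. The 250 bases before the RefSeq start of each of these 3 genes (GRCm38.p6, 5′ to 3′) are shown because these genes carry the differences, with capitals for any match to 4 motifs. The motifs were the GC box (GGGCGG), the ETS core (CCGGAA), an E2F-type site (TTTNNCGC) and the NF-kB consensus, all searched on both strands. The RefSeq start of *Casp8* lies inside the gene as GENCODE draws it.
Casp8 promoter (chr1:58802252-58802501, plus strand): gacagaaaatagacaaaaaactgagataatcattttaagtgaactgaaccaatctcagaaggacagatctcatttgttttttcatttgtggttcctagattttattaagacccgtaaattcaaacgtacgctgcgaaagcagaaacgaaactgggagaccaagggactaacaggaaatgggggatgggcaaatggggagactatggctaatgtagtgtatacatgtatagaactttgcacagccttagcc
Cflar promoter (chr1:58711241-58711490, plus strand): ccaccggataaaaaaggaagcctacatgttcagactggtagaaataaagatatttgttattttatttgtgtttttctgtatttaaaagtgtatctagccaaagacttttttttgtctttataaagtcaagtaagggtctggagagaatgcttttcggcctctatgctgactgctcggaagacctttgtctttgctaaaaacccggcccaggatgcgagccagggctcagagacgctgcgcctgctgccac
Casp6 promoter (chr3:129901165-129901414, plus strand): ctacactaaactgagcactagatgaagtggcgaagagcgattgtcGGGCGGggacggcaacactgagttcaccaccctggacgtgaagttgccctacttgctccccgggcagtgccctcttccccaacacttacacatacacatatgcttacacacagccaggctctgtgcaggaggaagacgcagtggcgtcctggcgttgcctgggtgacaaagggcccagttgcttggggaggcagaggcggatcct
The *Casp8* and *Cflar* windows held none of the 4 motifs and the *Casp6* window held 1 GC box. Of the 8 members, 6 held a GC box, against 32.7% of 32817 mouse promoter windows of the same length. The ETS core, present in 3944 of the 32817 windows, and the NF-kB consensus, present in 3.90%, were in none of the 8, and the E2F-type site, present in 4.28%, was in the *Fas* and *Fadd* windows, in *Fadd* overlapping a GC box. The bases G and C made up 39.6% of the *Casp8* window and 42.8% of the *Cflar* window, against 75.6% in *Apaf1* and 66.0% in *Casp9*, with a median of 52.4% over all windows. A match is a description of the letters and is no evidence of binding.

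Values are FPKM (fragments per kilobase of transcript, scaled to a fixed number of mapped fragments), which account for transcript length and depth. The steps of 1 fragment at genes with a single transcript put the depth at an estimated 20.6 to 20.8 M fragments in WT and 13.2, 20.5 and 17.3 M fragments in cKO 1, 2 and 3. WT libraries differed from each other by a chi-square per gene of 1.51 to 1.61, where counting noise alone gives 1, and cKO libraries by 32.3 to 69.8, so that the spread came almost wholly from the cKO side. *Nsrp1*, listed as *Ccdc55*, was at 20.2, 20.7 and 21.1 in WT and at 17.7, 15.8 and 15.0 in cKO, a fall of 21.8% (adjusted p = 0.00675 from limma), and no cKO library reached the WT range. This FPKM covers the whole gene, and the floxed exons were not analysed here. The WT libraries had no *Ddx3y* and *Xist* at 69.8 to 72.0, whereas the cKO libraries had *Ddx3y* at 26.2 to 35.0 and *Xist* at 4.07 to 5.44, so the sex of the mice and the genotype cannot be told apart in any comparison given here. All 10 DP markers were present, with *Cd4* at 486 to 487 in WT and 566 to 723 in cKO. Of 8 markers of mature single-positive cells, 7 were tested and 6 were called lower, with *Ccr7* at 15.1 to 16.2 in WT against 1.16 to 2.50 in cKO. *S1pr1*, among these 6, passed the filter of an FPKM of 1 in 3 libraries through its WT values alone. Lower was therefore the only direction it could be called in. The summed FPKM of the 8 markers was 164 to 166 in WT and 135 to 150 in cKO. That of 4 erythroid markers was 1.96 to 2.72 against 12.3 to 26.6, of 5 B cell markers 23.0 to 24.4 against 27.1 to 39.8, of 5 NK cell markers 55.0 to 61.2 against 77.1 to 106, and of 8 myeloid markers 6.52 to 8.14 against 6.45 to 7.54. That of 5 thymic epithelial markers was 3.56 to 3.98 against 1.92 to 3.68, nearly all of it *Epcam*, with *Foxn1* and *Krt5* listed at 0 in all 6 libraries. In bulk RNA, fewer cells of one type and less RNA per cell cannot be told apart, and the part of these cells in the results below was not tested.

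In DP thymocytes the members spanned a wide range of expression. In WT, *Fas* was highest, followed by *Casp6*, by *Cflar* and *Casp8* at about the same level, by *Apaf1*, *Fadd*, *Casp9* and *Fasl*. Neighbours in this order were apart in every library of WT and of cKO except *Cflar* and *Casp8*, whose WT ranges overlapped. *Fas* exceeded 91.1% of the 10326 tested genes in WT, *Casp6* 79.5%, *Cflar* 67.8% and *Casp8* 67.4%. *Apaf1* stood near the middle, above 47.3% of the genes, whereas *Fadd* exceeded 20.9% and *Casp9* fewer still. The receptor was thus far more abundant than the adaptor per length of transcript, at 17.6 to 19.4 *Fas* per *Fadd* in WT.

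**Figure D1:**
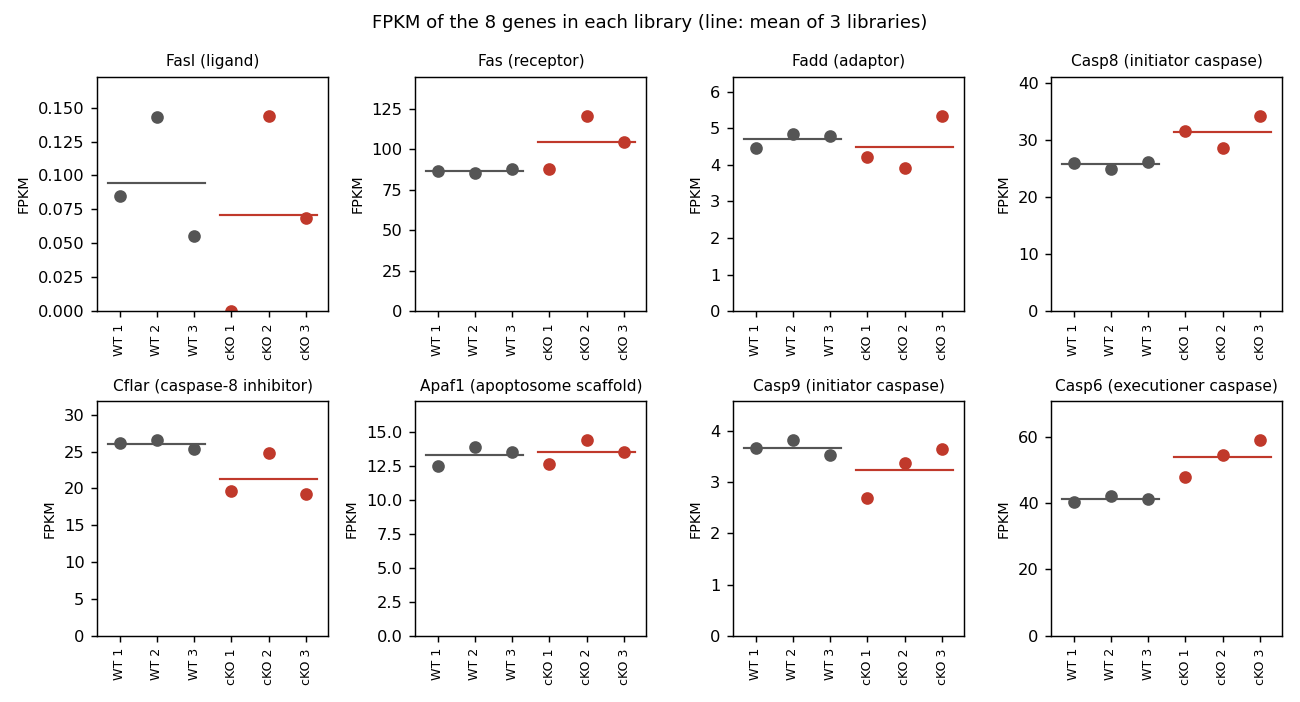
FPKM of each of the 8 genes (vertical axes, linear and starting at 0) in the 3 WT (grey) and 3 cKO (red) libraries, with the mean of each group as a line. The cKO points lie above all WT points for Casp8 and Casp6 and below them for Cflar, and the groups overlap for the other 5 genes.

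The test, limma on log2(FPKM + 1), called 3 of the 7 members that could be tested, *Casp8* and *Casp6* higher and *Cflar* lower in NSrp70-cKO, at an adjusted p under 0.05. Over all 10326 tested genes the same test called 65.5%, 35.8% higher and 29.8% lower, so the members were not called more often than genes at large. Likewise, the 2 groups of values did not overlap in 3 of the 8 members, nor in 72.5% of tested genes. The changes were small, with a median absolute log2 fold change of 0.25 over the 7 members against 0.40 over all tested genes. Fold changes refer to log2(FPKM + 1), where low genes such as *Fadd* and *Casp9* appear to change less than they do. With the mean of the WT libraries used as a single sample, no member was called (lowest adjusted p = 0.182 from limma, for *Casp6*), while 15.9% of all tested genes were.

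*Fasl*, the death ligand, made chiefly by activated T cells and NK cells, was close to absent. It was at an FPKM of 0.0852, 0.143 and 0.0556 in WT 1, 2 and 3 and at 0, 0.144 and 0.0684 in cKO 1, 2 and 3. On its transcript of 1937 nucleotides this is an estimated 2.0 to 5.1 fragments per WT library and 0 to 5.1 per cKO library, too few to show a difference, and *Fasl* did not pass the filter of an FPKM of 1 in 3 libraries. The gene lies on chromosome 1 from 161780689 to 161788495. Of the 5 NK cell markers, *Gzma* was at 53.1 to 59.1 in WT and at 76.4 to 105 in cKO (log2 fold change 0.69, adjusted p = 0.00229 from limma). *Gzma* stayed called higher under quantile normalization (0.44). It was not called when fold changes were corrected for the GC content and length of transcripts (-0.075, adjusted p = 0.524 from limma). Nor was it called with every library brought to the same FPKM total (0.14, adjusted p = 0.162 from limma). *Prf1* was at 1.07 to 1.55 in WT and no lower than 0.391 in cKO, whereas *Klrb1c*, *Klrk1* and *Ncr1* did not exceed 0.457 in any library.

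*Fas*, the receptor (chromosome 19, 34290666 to 34327772), was the most abundant member. It was at 86.5, 85.2 and 88.0 in WT and at 87.6, 120 and 105 in cKO. One cKO library lay within the WT range and the other two lay above it, so the groups overlapped. The log2 fold change was 0.25 (standard error 0.11, 95% interval -0.013 to 0.52, adjusted p = 0.0839 from limma), and the interval holds no change as well as a rise. Without cKO 1 the value was 0.37 with an adjusted p of 0.00776 from limma. The direction did not hold under other scalings. It turned to -0.32 (adjusted p = 0.0327 from limma) when fold changes were corrected for the GC content and length of transcripts, and to -0.063 under quantile normalization. The FPKM of *Fas* is summed over its isoforms, which include transcripts with and without the membrane-spanning part, and isoforms were not analysed here.

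*Fadd*, the adaptor that links Fas to caspase-8 (chromosome 7, 144577318 to 144582463), was low in both genotypes. It was at 4.45, 4.84 and 4.79 in WT and at 4.20, 3.91 and 5.33 in cKO, with cKO values on both sides of WT. Its log2 fold change was -0.065 (95% interval -0.32 to 0.19, adjusted p = 0.622 from limma).

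*Casp8*, the initiator caspase of the death receptor complex, rose by 22.3% in NSrp70-cKO. It was at 26.0, 25.0 and 26.2 in WT and at 31.5, 28.6 and 34.1 in cKO. Every cKO library lay above every WT library, with cKO 2 nearest to WT. The log2 fold change was 0.28 (standard error 0.080, adjusted p = 0.0192 from limma). The call ended once GC content and length were corrected for (0.10, adjusted p = 0.349 from limma) and without any 1 WT library (adjusted p of 0.0559 to 0.0795 from limma), and the sign turned with every library brought to the same FPKM total (-0.27, adjusted p = 0.0105 from limma, called lower).

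*Cflar*, whose product c-FLIP resembles caspase-8 but lacks its protease activity and so blocks its activation, fell by 18.4%. It was at 26.2, 26.5 and 25.4 in WT and at 19.6, 24.8 and 19.3 in cKO. Every cKO library lay below every WT library, and again cKO 2 was nearest to WT. The log2 fold change was -0.29 (standard error 0.099, adjusted p = 0.0346 from limma). *Cflar* was the only member with 1 direction, lower in cKO, in the reported fit and in all 15 other settings tried, with log2 fold changes from -0.83 to -0.23. Its adjusted p rose above 0.05 in 7 of them, among them leaving out any 1 WT library, cKO 1 or cKO 3 (0.0772 to 0.106 from limma), and fell to 0.000412 without cKO 2. *Cflar* was called lower under all 4 scalings shown in the plot of scalings. Many of the 15 settings could not have turned its sign. The filter, trend, replicate block and WT as 1 sample leave the fold change unchanged, and leaving out 1 library cannot reverse groups that do not overlap. The same FPKM total moved the median gene to -0.45, so members already lower could hardly reverse. Quantile normalization (-0.34) and the correction for GC content and length (-0.27) could have turned it and did not.

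The balance of *Casp8* to *Cflar* was also taken within each library, where the scaling of libraries drops out. It was 0.993, 0.942 and 1.03 *Casp8* per *Cflar* in WT and 1.61, 1.15 and 1.77 in cKO. WT cells thus held about equal levels of both mRNAs and every cKO library held more *Casp8* than *Cflar*. The FPKM of each gene is summed over its isoforms, with 4 annotated transcripts for *Casp8* and 13 for *Cflar*. Isoforms were not analysed here, so the balance is one of whole genes. Every cKO library lay above WT for *Casp8* and below WT for *Cflar*, so the ratio had to separate the groups. It restates those 2 differences and is no further support for them. The mean log2 ratio was 0.59 higher in cKO, or 1.51-fold. The difference was 0.46 to 0.77 when 1 library was left out, which could not have reversed it. It was 0.37 with both genes corrected for GC content and length. The exact two-sided permutation test gave p = 0.1, the smallest that 3 libraries against 3 allow (adjusted p = 0.133 over the 4 ratios tested by exact permutation). The exact permutation test gave the same smallest p of 0.1 for *Fas* to *Fadd* and for *Casp9* to *Xiap*, and p = 0.2 for *Apaf1* to *Casp9*. *Fas* to *Fadd* was 0.34 higher and *Casp9* to *Xiap*, a direct inhibitor of caspase-9, 0.26 lower on the log2 scale, and both reversed with the correction for GC content and length.

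**Figure D2:**
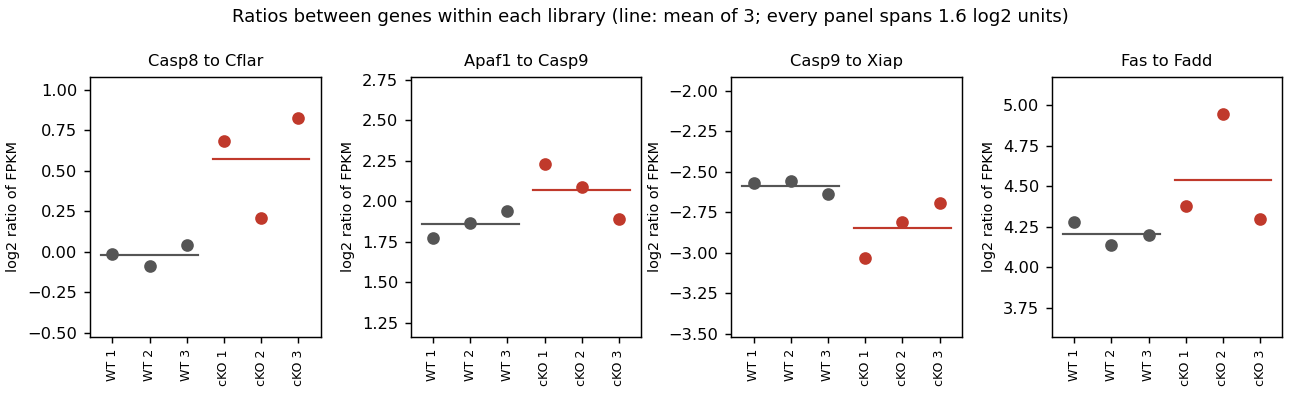
Log2 ratio of FPKM between 2 genes within each library (vertical axes, each spanning the same range of log2 units) in WT (grey) and cKO (red), with group means as lines. Casp8 to Cflar is near 0 in the WT libraries and at 0.21 to 0.83 in the cKO libraries, with cKO 2 the lowest of the 3.

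For the intrinsic route, *Apaf1*, the scaffold of the apoptosome (chromosome 10, 90989311 to 91082770), did not separate the genotypes. It was at 12.5, 13.9 and 13.5 in WT and at 12.7, 14.4 and 13.6 in cKO, so that all but 1 cKO value lay within the WT range. Its log2 fold change was 0.020, with a 95% interval of -0.15 to 0.19 (adjusted p = 0.820 from limma). *Casp9*, the caspase that APAF1 activates (chromosome 4, 141793612 to 141815976), was at 3.67, 3.82 and 3.53 in WT and at 2.70, 3.38 and 3.65 in cKO. Of its cKO values, 1 lay within the WT range and 2 below it. The log2 fold change was -0.15 (95% interval -0.38 to 0.093, adjusted p = 0.238 from limma), and it was 0.076 with the correction for GC content and length.

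*Casp6*, an executioner caspase known to cut nuclear lamins, rose by 30.3%, the largest change among the tested members. It was at 40.4, 42.1 and 41.4 in WT and at 47.9, 54.6 and 58.9 in cKO. All cKO libraries lay above all WT libraries, with cKO 1 nearest to WT. The log2 fold change was 0.37 (standard error 0.084, adjusted p = 0.00695 from limma), and the call held with each library left out in turn (0.30 to 0.44). It did not hold under quantile normalization (0.20, adjusted p = 0.0599 from limma). The direction reversed with the correction for GC content and length (-0.11) and with the same FPKM total (-0.18), neither of them called.

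**Figure D3:**
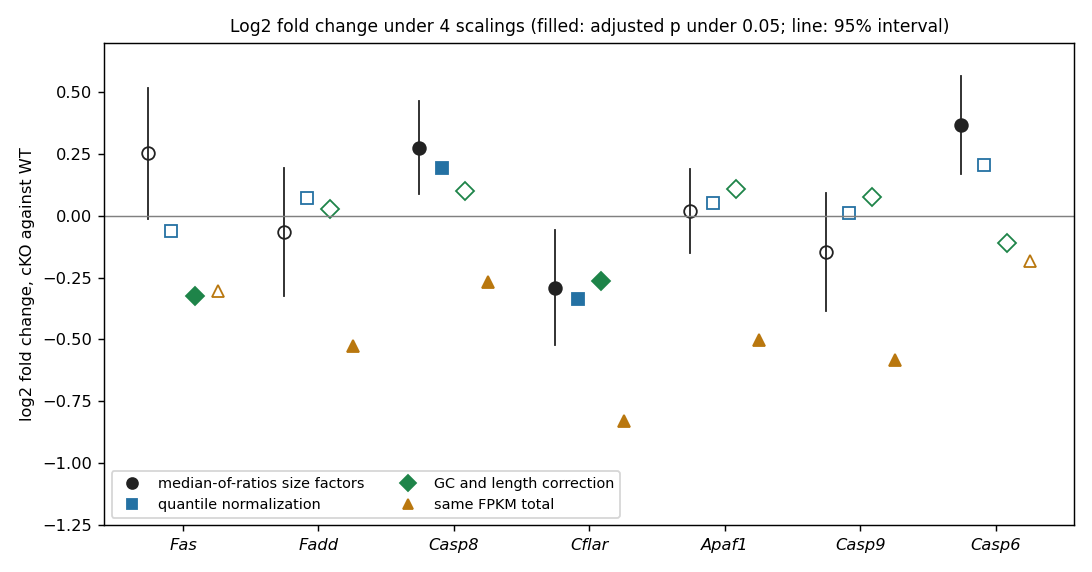
Log2 fold change of cKO against WT (vertical axis) for the 7 tested members under 4 scalings, with filled symbols for an adjusted p under 0.05 and the 95% interval of the fit with size factors as a line. Cflar lies below 0 under all 4 scalings, and every other tested member lies on both sides of 0.

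Bringing every library to the same FPKM total shifted the median of all tested genes from 0.039 to -0.45, because the totals were 521296 to 531517 in WT and 701396 to 850548 in cKO. Relative to that shift, *Cflar* at -0.83 was below the median gene and *Casp6* at -0.18 and *Casp8* at -0.27 were above it. *Apaf1* (-0.50), *Fadd* (-0.53) and *Casp9* (-0.58) lay slightly below it, and all 3 were then called lower.

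Across the 6 libraries, the genes nearest to the called members were sought among 7995 tested genes with a mean FPKM of 5 or more, as the Euclidean distance of log2(FPKM + 1) after subtraction of the WT mean. Nearest to *Casp6* were *Nt5c3* (distance 0.023) and *Bloc1s2* (0.053), nearest to *Casp8* were *Cpsf3l* (0.056) and *Nim1k* (0.063), and nearest to *Cflar* were *Paxip1* (0.080) and *Plekha3* (0.080). These distances describe 6 libraries in 2 groups and carry no test.

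Of 5 other caspases compared, 1 had a measurable level. *Casp2*, an initiator-type caspase, was at 46.4, 45.4 and 44.7 in WT and at 64.5, 73.6 and 75.8 in cKO. Its groups lay well apart, and its log2 fold change was 0.63 (standard error 0.077, adjusted p = 0.000535 from limma), against 0.37 for *Casp6*, the highest member. *Casp2* kept this direction under all 4 scalings but was not called with the same FPKM total (0.081), nor with the mean of WT as a single sample (adjusted p = 0.0571 from limma). The inflammatory caspases *Casp1* and *Casp4* stayed below 0.489 in every library, *Casp12* was listed at 0 in all but 1 library and *Casp14* in all 6.

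Of 17 other genes of death receptor signalling, 16 were tested, and 5 were called higher and 5 lower, or 62.5% against 65.5% over all tested genes, with a median log2 fold change of 0.029 against 0.039. The higher genes were *Faim*, an inhibitor of Fas-induced death (log2 fold change 0.78), *Faf1*, which binds Fas (0.70), *Bid*, the caspase-8 substrate that carries the signal to mitochondria (0.67), and the TNF receptor signalling genes *Ripk1* (0.42) and *Traf2* (0.27). The lower genes were *Tnfrsf25*, a death receptor of T cells (-1.07), *Tnfaip3*, which encodes the NF-kB inhibitor A20 (-0.63), the adaptor *Tradd* (-0.40), the TNF receptor *Tnfrsf1a* (-0.27) and *Daxx* (-0.21). *Ripk1*, *Traf2*, *Tnfaip3*, *Tradd*, *Tnfrsf1a* and *Daxx* lie outside the rule for named genes and were named after their values were seen. *Bid* was at 16.9, 17.2 and 18.2 in WT and at 25.1, 29.4 and 30.5 in cKO, with the groups well apart. *Tnfrsf25*, at 1.11 to 1.72 in WT, was listed at 0 in cKO 1 and at 0.277 and 0.206 in cKO 2 and 3. It passed the filter through its WT values alone, so that lower was the only direction it could be called in. With the correction for GC content and length, *Faim* was at 0.18 (adjusted p = 0.318 from limma), *Tnfrsf1a* at -0.073 (0.359) and *Daxx* at 0.11 (0.203), and none of these was called. Under the same FPKM total none of the 16 was called higher and 10 were called lower, among them *Traf2* (-0.27), and *Ripk1* was at -0.084. *Tnfaip3* and *Tradd* were called lower under all 4 scalings. So was *Tnfrsf25*, for which the filter left no other direction to be called in.

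Among 10 inhibitors of caspases and mitochondrial factors, 4 were called higher and 1 lower, against 65.5% called over all tested genes, with a median log2 fold change of 0.20 against 0.039. *Cycs*, which encodes the cytochrome c that assembles with APAF1, was at 24.6, 25.2 and 26.9 in WT and at 42.4, 45.4 and 54.6 in cKO (log2 fold change 0.86, adjusted p = 0.000483 from limma). *Diablo*, which relieves caspases of their inhibitors, and the mitochondrial flavoprotein *Aifm1* had log2 fold changes of 0.45 and 0.47, and *Htra2*, a mitochondrial protease, of -0.50. With the correction for GC content and length, *Diablo* (0.17, adjusted p = 0.182 from limma) and *Htra2* (-0.34, adjusted p = 0.0523) were not called, and with the same FPKM total *Diablo* and *Aifm1* were at -0.096 and -0.070. *Diablo* lies outside the rule and was named after its value was seen. *Birc5*, a gene of the inhibitor of apoptosis family that is known mainly for its part in cell division, had the largest change of the list, from 107 to 115 in WT to 242 to 294 in cKO (log2 fold change 1.23). *Birc5* and *Cycs* were called higher under all 4 scalings. *Xiap*, the direct inhibitor of caspase-9 and of executioner caspases, was at 21.8 to 22.5 in WT and at 22.1 to 23.7 in cKO (log2 fold change 0.065, adjusted p = 0.363 from limma).

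Of 13 caspase substrates and effectors of cell dismantling, 12 were tested. In cKO 2 of them were higher and 3 lower, or 41.7% called against 65.5% over all tested genes, with a median log2 fold change of -0.053 against 0.039. *Acin1*, a chromatin condensation and splicing-associated protein, was at 165, 166 and 165 in WT and at 91.8, 89.6 and 88.8 in cKO, so that its log2 fold change was -0.87 (standard error 0.061, adjusted p = 0.000114 from limma). It was called lower under all 4 scalings. *Lmna*, a lamin, and *Parp1*, a DNA repair enzyme, had log2 fold changes of -0.68 and -0.33. Both calls ended with the correction for GC content and length, at -0.15 (adjusted p = 0.152 from limma) and -0.17 (0.0979). *Stk4* (0.33) and *Rock1* (0.23), both kinases, were the higher genes, and *Rock1* lies outside the rule and was named after its value was seen. Under quantile normalization they were at -0.053 and 0.029 and not called, and with the same FPKM total both were called lower, at -0.23 and -0.32. *Dffa* and *Dffb*, the inhibitor and the nuclease of apoptotic DNA cleavage, were at log2 fold changes of 0.13 and 0.024, with overlapping groups and adjusted p of 0.195 and 0.869 from limma.

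**Figure D4:**
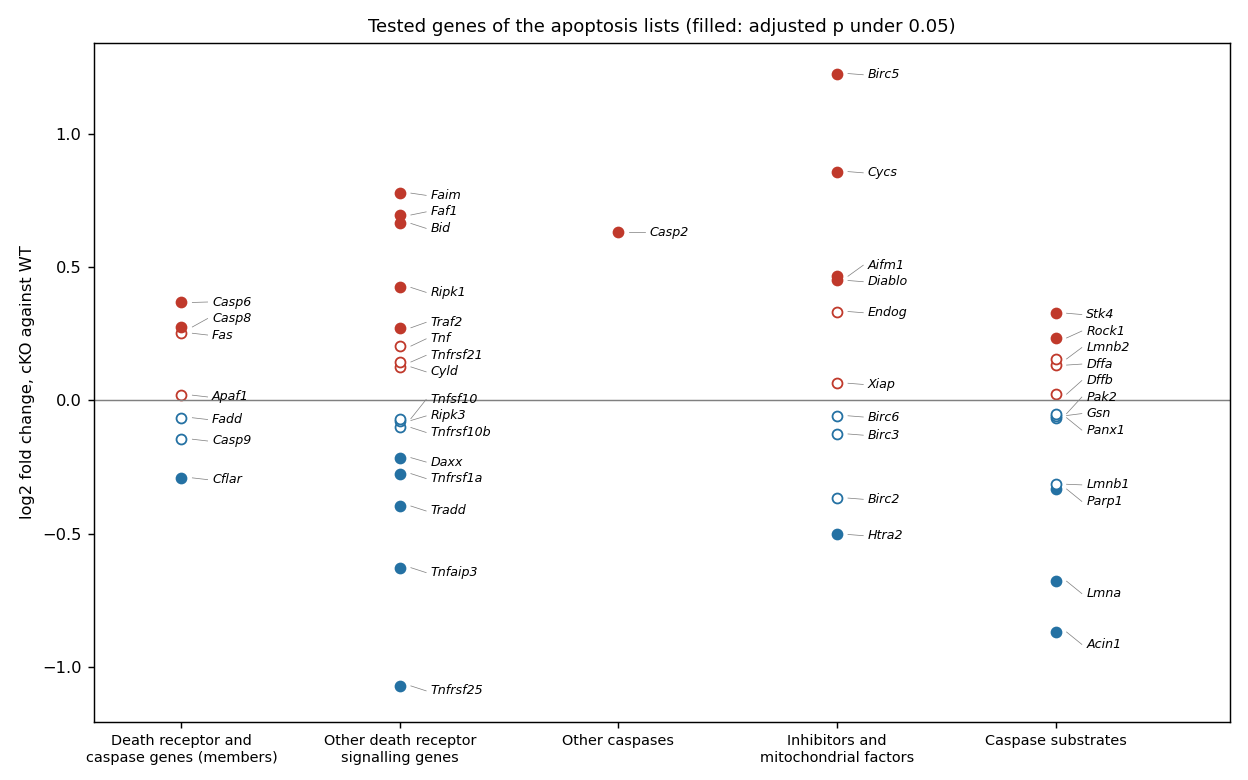
Log2 fold change of cKO against WT (vertical axis) for each tested gene of the 5 apoptosis lists, red above and blue below 0, filled where the adjusted p was under 0.05. Casp2 lies above Casp6, the highest member, and the members span the narrow range from -0.29 to 0.37.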

How the data were processed

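RNA-seq libraries of sorted DP thymocytes, 3 WT and 3 NSrp70-cKO by their labels, were analysed. The authors prepared poly(A)-enriched directional libraries, used TopHat with the mm10 genome for the paired-end reads after fastx trimming, and deposited 1 FPKM value per gene symbol and library, computed with Cufflinks. Versions and the gene annotation are not given in the sources used here. Their DESeq2 test needs counts and was not repeated. Depth was estimated with an assumed fragment length of 200 nucleotides at 2611 single-transcript coding genes over 1000 nucleotides, compared with GENCODE M21 (GRCm38), which matched 22757 of 23183 symbols; counting noise is the only error that it describes. FPKM were divided by median-of-ratios size factors (1.002 to 1.015), and log2(FPKM + 1) of the 10326 genes at 1 or more in at least 3 libraries was fitted by genotype with limma 3.58.1 (eBayes with trend) in R 4.3.3, with Benjamini-Hochberg adjustment over all tested genes. The fit was tested on simulated data with the same spread in both groups, so that test does not cover the wider spread of the cKO libraries. Ratios were tested by exact permutation in scipy 1.17.1. Promoters are from RefSeq.

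Genes named are the members, *Nsrp1*, the listed caspases, up to 4 called genes with the largest change in each pathway list, and the 2 genes nearest to each called member. Some listed genes are not reported here. Members, lists and motifs were chosen with earlier results of these data known. Pseudocount, filter, scaling, trend, replicate block, WT as 1 sample, GC content and length (splines with 5 degrees of freedom), and each library left out were the alternatives; the ratios with GC and length correction were added after seeing the data. Replicate numbers are in the labels, but nothing used here says that same-numbered libraries belong together.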

Additional observations from a re-analysis of the deposited data

How the results depend on the processing

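Members called higher and lower, 2 and 1 in the reported fit, were 1 and 1 under quantile normalization, 0 and 5 with the same FPKM total, 0 and 0 with the WT libraries as 1 sample, 0 and 2 with the correction for GC content and length, and 2 and 0 without the filter. Leaving out 1 library gave 1 to 3 higher and 0 to 1 lower. *Fas* reversed to -0.063 under quantile normalization, -0.30 with the same total and -0.32 with the correction. *Fadd* reversed to 0.071 under quantile normalization, 0.026 with the correction and 0.015 without cKO 2 (-0.17 to 0.015 without 1 library), *Casp9* to 0.011 and 0.076 under the first 2 of these, and *Apaf1* to -0.50 with the same total, -0.019 without WT 1 and -0.017 without cKO 2 (-0.019 to 0.059 without 1 library). *Casp8* reversed to -0.27 with the same total, and *Casp6* to -0.18 with it and -0.11 with the correction. *Cflar* kept its direction in all 15 settings, though many of them could not have turned it. Over all genes, 902 were called higher and 6181 lower with the same total, and 744 and 901 with WT as 1 sample; leaving out 1 library gave 3073 to 4113 and 2504 to 3554. The cause of these changes was not tested beyond the settings' own construction.

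With the correction, the difference in log2 ratio was 0.034 for *Apaf1* to *Casp9*, 0.092 for *Casp9* to *Xiap* and -0.35 for *Fas* to *Fadd*. Leaving out 1 library gave 0.13 to 0.30, -0.34 to -0.16, 0.13 to 0.46 and, for *Casp8* to *Cflar*, 0.46 to 0.77. Of the other lists, death receptor signalling had 0 higher and 10 lower with the same total, 0 and 1 with WT as 1 sample, 3 lower with the correction and 3 to 5 lower without 1 library. The other caspases had 0 higher with the same total and 0 with WT as 1 sample, against 1 in the reported fit. Inhibitors and mitochondrial factors had 2 higher and 5 lower, then 2 and 0, in these 2 settings, 2 lower with the correction and 1 to 3 lower without 1 library. Caspase substrates had 0 higher and 6 lower under quantile normalization, 0 and 12 with the same total, 0 and 1 with WT as 1 sample, 4 and 1 with the correction and 1 to 3 higher without 1 library (1 without WT 2).

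A fit with the replicate number as a block changed no member's call: *Casp8*, *Cflar* and *Casp6* had adjusted p of 0.0283, 0.0359 and 0.0124 from limma. Deviations of same-numbered WT and cKO libraries correlated at -0.022, 0.039 and 0.031 across genes. The WT libraries differed from each other by little more than counting noise (chi-square per gene of 1.51 to 1.61). These correlations therefore cannot show whether the numbers pair the samples. At 5.1 estimated fragments or fewer per library, a difference in *Fasl* was not detectable at this depth.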
